A study of Mus musculus with 30 samples.

Results

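The comparison set Cre-positive against Cre-negative adult mouse microglia among libraries with late mouse numbers, from WT-M-0176 upwards. The rule took the number at the end of each label, pooled the Het and Homo libraries as Cre-positive, and set them against WT with sex as a term in the fit. It left 24 of the 30 libraries, 16 of them Cre-positive and 8 WT. The Cre-positive libraries comprised 5 female and 4 male Het mice and 5 female and 2 male Homo mice, and WT comprised 3 females and 5 males. No comparison within these 24 libraries sets an early number against a late one. The numbers are not evenly placed within the late range: WT-M-0176, WT-M-0177 and WT-M-0178 lie below every Cre-positive library, the lowest being Homo-M-0189.

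Homo mice were Bin1 flox/flox::Cx3Cr1-Cre+, Het mice were Bin1 wt/flox::Cx3Cr1-Cre+, and the mice labelled WT are given in the legend of the study as Bin1 wt/flox without Cre. All 3 genotypes therefore carried at least 1 floxed Bin1 copy, and the controls were not Bin1 wt/wt. Cre is expressed from a knock-in at the Cx3cr1 gene, so a Cre-positive mouse also lacks an intact Cx3cr1 copy. Presence of Cre, loss of a Cx3cr1 copy and loss of the first Bin1 copy came together in every Cre-positive mouse and cannot be told apart by this contrast. The methods describe CD11b+ CD45med microglia sorted from brains of 3 month-old mice, whereas the protocol in the sample records speaks of microglia grown from newborn pups; the former was followed here. In such bulk RNA, fewer cells of a type and less RNA per cell cannot be told apart.

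BIN1 is an N-BAR protein that binds and curves membranes during endocytosis, and its gene is a risk locus for Alzheimer's disease. CX3CR1 is the microglial receptor for the neuronal chemokine fractalkine, and signalling through it is known to restrain microglial activation. Microglia that lose this restraint, or that meet amyloid or dying cells, are known to take up a disease-associated programme in which the cystatin gene Cst7 is among the most responsive genes.

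Values are FPKM, fragments per kilobase of transcript relative to the mapped fragments of a library, as deposited. Fold changes are on the log2(FPKM + 0.1) scale after scaling between libraries, which understates the change of low genes. A gene was called when its Benjamini-Hochberg adjusted p from limma was below 0.05 and its fold change exceeded 1.5. Depth relative to the median library was 0.721 to 1.40 in Cre-positive and 0.971 to 1.34 in WT libraries. It was read from the most common ratio between low FPKM values of each library and a reference library. The absolute depth is unknown. The defining microglial genes P2ry12 and Tmem119 were at 1751 FPKM or above in every library. Xist and Ddx3y matched the labelled sex in all 24 libraries.

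Bin1 fell and Cx3cr1 was lower in all Cre-positive libraries. Bin1 (ENSMUSG00000024381) was between 230 and 290 FPKM in the 8 WT libraries, with a median of 254. The 9 Het libraries were at 117 to 164 FPKM apart from Het-F-0206 at 42.7 and Het-M-0199 at 51.8, and the 7 Homo libraries were at 39.5 to 45.2. The libraries labelled Het-F-0206 and Het-M-0199 thus held Bin1 at or close to the Homo level, against their labels. The log2 fold change of Bin1 was -1.78 ± 0.32 (SE; adjusted p = 0.00319 by limma), with no overlap between Cre-positive and WT libraries in either sex.

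Cx3cr1 (ENSMUSG00000052336) was 1829 to 2344 FPKM in WT, with a median of 2028. It was 748 to 1243 FPKM in 15 of the 16 Cre-positive libraries and 13.9 in Het-F-0206. Without Het-F-0206 its log2 fold change was -0.92 (adjusted p = 6.35e-07 by limma). With that library it was -1.21 ± 0.54 (SE; adjusted p = 0.355). The calls and fold changes of Cre-positive against WT were therefore also computed without Het-F-0206. Its median correlation with the other libraries over genes was 0.9615. Its summed level of 20 homeostatic microglial genes was 54294 FPKM, against 55329 to 67008 in the others. The sum of Het-F-0206 includes Cx3cr1 itself, at 13.9 FPKM, against 2344 in WT-M-0178, whose sum was 56512. Its place below WT-M-0178 thus depends on counting Cx3cr1. Other genes of the list were low in Het-F-0206 too. Fcrls was 1384 FPKM against 1609 to 2059 in the other Cre-positive females, and Sparc 1790 against 1986 to 2373. Of the 20 genes, 10 lay within the range of those females in Het-F-0206. Cst3 alone made up 22041 FPKM of its sum.

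**Figure D1:**
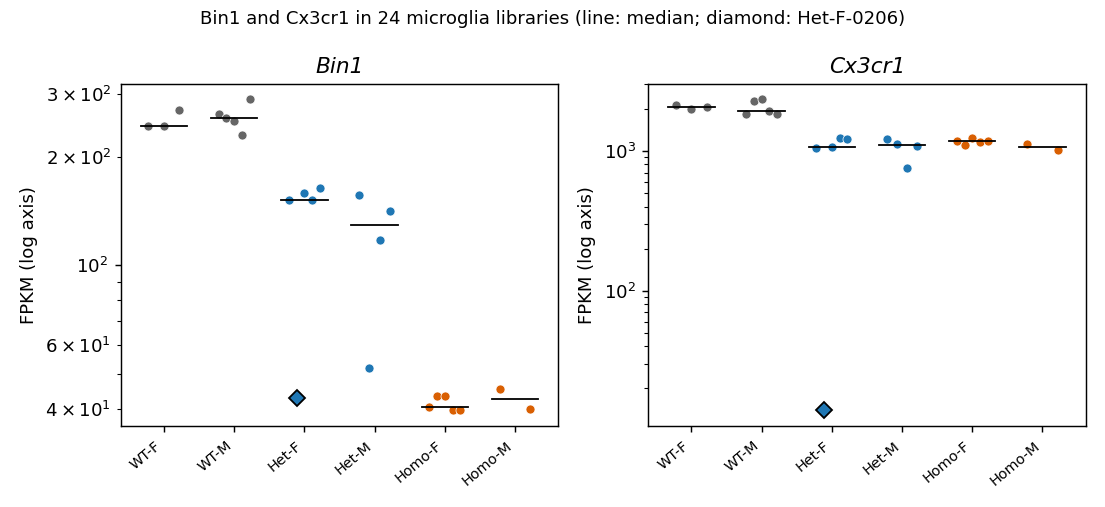
Bin1 (left) and Cx3cr1 (right) FPKM on log axes in each of 24 libraries, by genotype and sex; lines are group medians and the diamond is Het-F-0206. Bin1 is at 230 FPKM or above in WT and between 39.5 and 164 in Cre-positive libraries, and Cx3cr1 in Het-F-0206 is at 13.9 FPKM, far below the 748 to 1243 of the other Cre-positive libraries.

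Of 16565 genes tested, 138 were called (0.833%), 82 raised (0.495%) and 56 lowered (0.338%). The adjusted p alone was passed by 247 genes (1.49%), 151 raised (0.912%) and 96 lowered (0.58%), and the unadjusted p was below 0.05 for 2000. The median log2 fold change over all genes was 0.00. Without Het-F-0206 130 genes were called (0.785%), 123 of them also called with it. All 82 raised and all 56 lowered genes kept their sign in males alone and in females alone, although each sex entered the fit that called them. In 15 of the 82 raised genes, and in 3 of the 56 lowered genes, Cre-positive and WT libraries did not overlap within either sex; over all genes tested 22 (0.133%) were raised and 7 (0.0423%) lowered without overlap. A mean below 1 FPKM was found for 22 of the 82 raised genes (26.8%) and 33 of the 56 lowered genes (58.9%), against 30.8% of all genes tested.

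Fewer genes of both sets were called with depth as a covariate and without WT-F-0192, and the cause was not tested. Median relative depth was 1.11 in WT and 0.983 in Cre-positive libraries, so the covariate is not independent of genotype. With relative depth as a covariate, 48 of the 82 raised but 10 of the 56 lowered genes were still called. Without the library WT-F-0192, 52 of the 82 raised and 12 of the 56 lowered genes were still called.

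**Figure D2:**
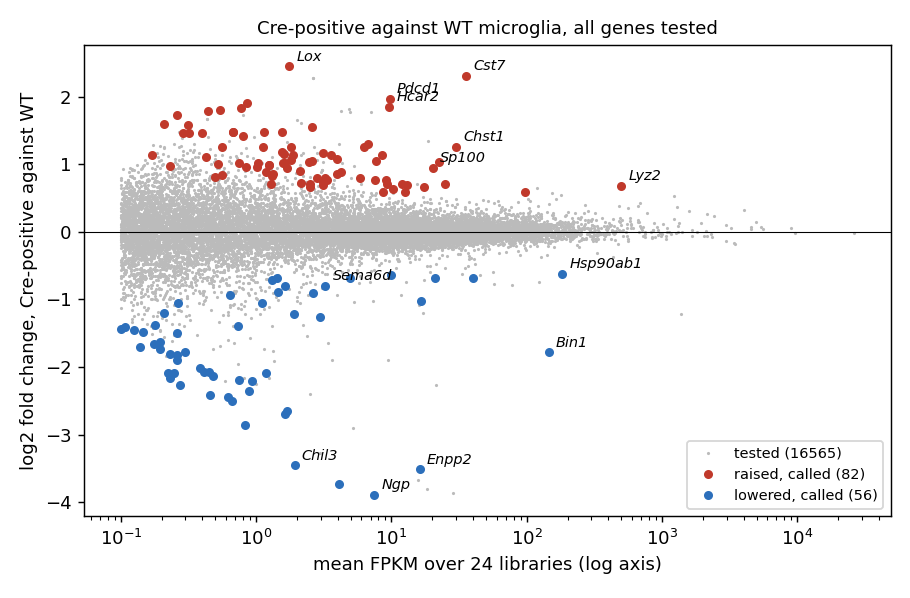
Log2 fold change of Cre-positive against WT (vertical axis) against mean FPKM over 24 libraries (horizontal log axis) for 16565 genes; red points are the 82 raised and blue points the 56 lowered genes that were called. The raised genes reach 2.45 (Lox), and the lowered genes include Ngp at -3.89 and Enpp2 at -3.51, with mean levels of 7.45 and 16.2 FPKM, and Bin1 at -1.78.

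The gene that separated the groups most was Cst7 (ENSMUSG00000068129), which encodes cystatin F, an inhibitor of lysosomal cysteine proteases. It was 7.14 to 13.1 FPKM in WT (median 10.1) and 35.6 to 85.3 in Cre-positive libraries (median 45.7). The log2 fold change was 2.31 ± 0.13 (SE; adjusted p = 4.57e-12 by limma), a 4.94-fold rise. All Cre-positive libraries lay above all WT libraries, and the rise was 2.30 in males and 2.31 in females on the log2 scale. Of 15 cystatins and cathepsins tested, Cst7 was the 1 called, the median log2 fold change was 0.07, and Cst3, the most abundant cystatin, was at -0.02 ± 0.12 (SE).

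Pdcd1 encodes PD-1, an inhibitory receptor best known from exhausted T cells. It was 1.93 to 4.73 FPKM in WT (median 3.11) and 8.36 to 27.5 in Cre-positive libraries (median 11.8), without overlap, and its log2 fold change was 1.97 ± 0.17 (SE; adjusted p = 4.6e-08 by limma). The 3 T, B and NK cell markers that reached the level for testing were not called, and 12 others, Cd3d, Cd3e, Cd3g and Cd8a among them, were below a mean of 0.1 FPKM. Among 19 checkpoint receptors and ligands tested, 3 were raised and 0 lowered, with a median of 0.20. The others raised were Ly9, a receptor of the SLAM family, by 1.03, and Tnfsf8, the ligand of CD30, by 1.18. Cd274, which encodes the PD-1 ligand PD-L1, passed the adjusted p (0.0171 by limma) at 0.58, just under the fold threshold.

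Hcar2, the receptor for beta-hydroxybutyrate and niacin, was 2.19 to 5.28 FPKM in WT (median 3.48) and 6.14 to 27.8 in Cre-positive libraries (median 11.4). The groups did not overlap, and the log2 fold change was 1.85 ± 0.20 (SE; adjusted p = 2.77e-06 by limma). Among 16 metabolite, purine and orphan G protein-coupled receptors tested, 4 were raised and 0 lowered, with a median of 0.13. The others were the orphan receptors Gpr153 (1.48) and Gpr162 (0.72) and the adenosine receptor gene Adora1 (0.96). The purine receptor gene P2ry12, a marker of resting microglia, was at 0.07 ± 0.08 (SE).

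Chst1 and Chst2 encode sulfotransferases that add sulfate to N-acetyllactosamine chains. Chst1 was 9.9 to 20.3 FPKM in WT (median 15.9) and 31.8 to 68.9 in Cre-positive libraries (median 34.6), and Chst2 was 0.354 to 0.774 and 1.02 to 2.3. Neither overlapped. Their log2 fold changes were 1.26 ± 0.13 and 1.25 ± 0.15 (SE; adjusted p = 1.9e-06 and 1.6e-05 by limma). They were the only called members of 14 sulfotransferases tested, whose median was -0.03.

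**Figure D3:**
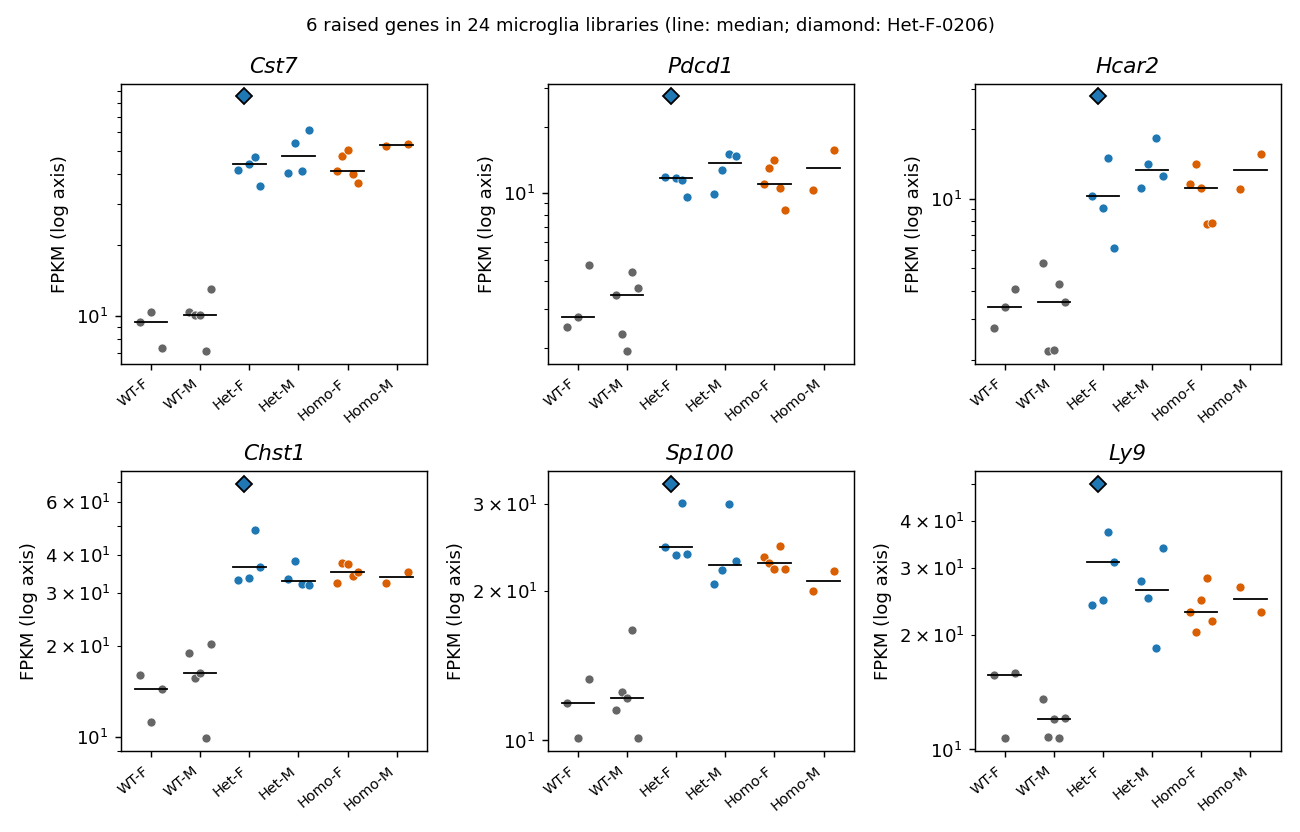
FPKM on log axes of Cst7, Pdcd1, Hcar2, Chst1, Sp100 and Ly9 in each of 24 libraries, by genotype and sex; lines are group medians and the diamond is Het-F-0206. Every Cre-positive library lies above every WT library of its sex in all 6 panels, Het and Homo libraries overlap, and Het-F-0206 is the highest of the 24 in each panel.

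Lox encodes lysyl oxidase, which crosslinks collagen and elastin. It was 0 to 0.668 FPKM in WT (median 0.434) and 1.1 to 6.1 in Cre-positive libraries (median 2.27), with a log2 fold change of 2.45 ± 0.30 (SE; adjusted p = 1.63e-05 by limma). Of 17 lysyl oxidase and matrix genes tested 2 were raised, the other being Vcam1, an adhesion molecule for leukocyte integrins, from 2.29 to 5.84 FPKM in WT to 5.69 to 24.1 in Cre-positive libraries (1.04 ± 0.19, SE). Loxl2 and Loxl3 were at 0.23 ± 0.20 and 0.22 ± 0.08 (SE) and were not called.

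Rxrg, a retinoid X receptor gene, was 0.684 to 1.55 FPKM in WT (median 0.888) and 1.34 to 5.75 in Cre-positive libraries (median 3.26). The groups overlapped through WT-M-0177 at 1.55 and Het-M-0197 at 1.34, and the log2 fold change was 1.55 ± 0.19 (SE; adjusted p = 1.24e-05 by limma). Of 16 nuclear receptors tested it was the 1 called, while its relatives Rxra and Rxrb were at -0.11 ± 0.10 and -0.15 ± 0.05 (SE).

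Sp100, a component of PML nuclear bodies induced by interferon, was 10.1 to 16.7 FPKM in WT (median 12.1) and 20.0 to 32.9 in Cre-positive libraries (median 23.2). The log2 fold change was 0.95 ± 0.09 (SE; adjusted p = 1.82e-07 by limma), without overlap. Of 28 interferon and PML body genes tested, 2 were raised, Sp100 and Ifi44 (1.80 ± 0.34, SE), and the median was 0.10. Ifi27 passed the adjusted p (0.0133 by limma) at 0.35, under the fold threshold, and Pml was at -0.07 ± 0.08 (SE). Outside the list and chosen after their values were seen, the interferon-inducible genes Oas1g (1.48 ± 0.36, SE) and Ifi213 (1.06 ± 0.26, SE) were also called, and both belong to families of near-identical copies in which reads can be split.

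The 9 genes above that the study named as raised in its own contrasts (Cst7, Chst1, Chst2, Pdcd1, Lox, Rxrg, Gpr153, Sp100 and Hcar2) were all called here, with and without Het-F-0206. The study chose them on these same mice, so their count is not independent evidence of direction.

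The other raised genes without overlap were Il1r2, Xirp1, Tmem154, Kcnj12, Amer2 and Pxdc1. Il1r2, which encodes the decoy receptor for interleukin-1, was 0.0979 to 0.357 FPKM in WT and 0.283 to 2.06 in Cre-positive libraries, which overlapped across but not within the sexes (1.83 ± 0.24, SE). Xirp1, an actin-binding protein of striated muscle, was 0.141 to 0.471 FPKM in WT and 0.503 to 3.54 in Cre-positive libraries (1.41 ± 0.25, SE). Xirp1 lies at 120013755 to 120023598 on chromosome 9, inside the annotated span of Cx3cr1 (119901616 to 120069879) and on the same strand. Within 5 Mb of Cx3cr1 it was the 1 called of 83 genes tested (1.2%), with a median of 0.01. The 83 include Cx3cr1, which was called too without Het-F-0206. The part of its position at the Cre knock-in locus in the Xirp1 values was not tested. The membrane protein gene Tmem154 rose by 1.07, the potassium channel gene Kcnj12 by 0.95, Amer2, which encodes a Wnt pathway regulator, by 0.73, and Pxdc1 by 0.70. Together with Cst7, Lox, Pdcd1, Hcar2, Gpr153, Chst1, Chst2, Ly9 and Sp100 they make up the 15 raised genes of the naming rule.

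Several inflammatory mediators were raised. Of 21 genes of NF-kB feedback and cytokines tested, 3 were called raised and 0 lowered, and the median was 0.22. Tnf was 0.41 to 1.88 FPKM in WT and 0.608 to 3.9 in Cre-positive libraries (1.01 ± 0.26, SE; adjusted p = 0.0437 by limma). Il1b was 1.5 to 4.18 and 2.86 to 7.66 (0.85 ± 0.19, SE; adjusted p = 0.0166), and the chemokine gene Ccl3 rose by 0.66. All 3 overlapped between groups, Ccl3 was not called without Het-F-0206, and 0 of the 21 were called with depth as a covariate. The adjusted p alone was passed by 6 of the 21, all higher in Cre-positive libraries. Among regulators of NF-kB, Nfkbiz passed it (0.0183 by limma) at 0.56 ± 0.12, under the fold threshold, and Nfkbia and Tnfaip3 were at -0.02 ± 0.12 and 0.14 ± 0.09 (SE).

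The MHC class I genes H2-Q6 and H2-Q7 rose by 1.13 ± 0.21 and 1.30 ± 0.15 (SE; adjusted p = 0.00473 and 1.24e-05 by limma). H2-Q7 was 2.14 to 6.46 FPKM in WT and 5.69 to 12.3 in Cre-positive libraries. The H2-Q genes are near-identical copies, so reads can be split between them and each single value is uncertain. The class I genes H2-K1, H2-D1 and H2-M3 passed the adjusted p at 0.40, 0.38 and 0.46. The class II gene H2-Aa fell by 1.03 on the log2 scale (adjusted p = 0.0463) and Cd74, its invariant chain, was at -0.78 ± 0.21 (SE; adjusted p = 0.0541). Of 20 presentation genes tested 2 were raised and 1 was lowered, with a median of 0.14.

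A list of mostly natural killer and SLAM family receptors, drawn up after the called genes had been seen, held 3 raised genes of 13 tested. They were Ly9, Cd244a (1.17 ± 0.20, SE) and Cd300lf (1.14 ± 0.24, SE), the last of the CD300 family. Other raised genes chosen after their values were seen were F3, which encodes tissue factor (1.02 ± 0.16, SE), Ackr3, a scavenger receptor for CXCL12 (1.15 ± 0.20, SE), Ch25h, which makes 25-hydroxycholesterol (1.26 ± 0.24, SE), and Lyz2, which encodes lysozyme (0.68 ± 0.12, SE). Lyz2, with a mean of 496 FPKM, was the most abundant raised gene.

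The rise of Cst7 was not shared by most of the disease-associated programme. Of 25 genes of that list tested, Cst7 was the 1 called, and the median was 0.14. Csf1, Cd52 and Cd9 passed the adjusted p at 0.58, 0.58 and 0.37, all under the fold threshold. Clec7a was at 0.70 ± 0.19 (SE; adjusted p = 0.0551) and Axl at 0.68 ± 0.18 (SE; adjusted p = 0.0609), and both were called without Het-F-0206, at 0.65 and 0.62. Apoe was at -0.37 ± 0.14, Lpl at -0.21 ± 0.13 and Trem2 at 0.19 ± 0.08 (SE), and none of these passed. Homeostatic genes stayed out of the calls: 0 of 20 tested were called with Het-F-0206 and 1, Cx3cr1, without it, with a median of -0.04.

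Promoters of raised genes are given for Cst7, the leading gene, for Tmem154, Cd244a and F3, whose promoters share its motif, and for Pdcd1, which lacks it. The sequences are those of RefSeq on GRCm38.p6, 250 bases before to 50 after the start, written 5′ to 3′ along the gene. Capitals mark matches to any of 6 motifs searched on both strands: GAGGAAGT (PU.1), TGANTCA (AP-1), GAAANNGAAA (interferon response), CACGTG (E-box), AGGTCA (nuclear receptor half-site) and GGGNNTTTCC (NF-kB). None of the matches shown overlap.
Cst7 (chr2:150570165-150570464, plus strand): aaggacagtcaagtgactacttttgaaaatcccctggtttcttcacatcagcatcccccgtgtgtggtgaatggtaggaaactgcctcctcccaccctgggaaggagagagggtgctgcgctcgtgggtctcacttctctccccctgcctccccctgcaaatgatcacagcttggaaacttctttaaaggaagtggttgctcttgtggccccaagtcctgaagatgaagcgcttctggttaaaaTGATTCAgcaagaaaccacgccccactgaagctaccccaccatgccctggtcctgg
Tmem154 (chr3:84665942-84666241, plus strand): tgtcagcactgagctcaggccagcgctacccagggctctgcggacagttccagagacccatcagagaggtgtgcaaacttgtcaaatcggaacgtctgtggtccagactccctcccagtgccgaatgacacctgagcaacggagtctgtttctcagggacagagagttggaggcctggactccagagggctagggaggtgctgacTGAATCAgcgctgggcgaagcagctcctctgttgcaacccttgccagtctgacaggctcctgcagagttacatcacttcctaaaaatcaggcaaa
Cd244a (chr1:171558943-171559242, plus strand): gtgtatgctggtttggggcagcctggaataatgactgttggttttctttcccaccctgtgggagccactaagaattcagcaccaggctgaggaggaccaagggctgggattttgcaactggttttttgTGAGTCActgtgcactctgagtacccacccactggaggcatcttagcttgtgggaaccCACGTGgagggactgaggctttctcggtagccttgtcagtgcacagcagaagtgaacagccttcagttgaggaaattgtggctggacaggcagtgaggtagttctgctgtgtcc
F3 (chr3:121723287-121723586, plus strand): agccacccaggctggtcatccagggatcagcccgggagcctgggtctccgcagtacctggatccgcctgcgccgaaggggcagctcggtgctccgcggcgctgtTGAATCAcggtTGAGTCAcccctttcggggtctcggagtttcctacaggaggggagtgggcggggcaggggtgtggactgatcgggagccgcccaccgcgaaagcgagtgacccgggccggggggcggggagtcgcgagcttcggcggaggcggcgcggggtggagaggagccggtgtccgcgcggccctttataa
Pdcd1 (chr1:94052504-94052803, minus strand): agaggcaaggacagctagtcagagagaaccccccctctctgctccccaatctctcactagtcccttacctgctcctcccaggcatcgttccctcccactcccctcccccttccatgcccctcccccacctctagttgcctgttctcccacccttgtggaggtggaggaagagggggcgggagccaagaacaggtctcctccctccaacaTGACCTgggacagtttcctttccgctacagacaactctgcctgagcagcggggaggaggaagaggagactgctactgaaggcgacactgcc

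TGANTCA stood at -6 to 1 from the start in Cst7, at -45 to -39 in Tmem154, ending at -116 in Cd244a, and at -146 to -140 and -135 to -129 in F3. The other capitals are an E-box in Cd244a at -64 to -59 and a half-site on the opposite strand in Pdcd1 at -41 to -36. Of the 56 raised genes with a promoter in the table, 9 held TGANTCA (16.1%), against 4.83% of 10537 promoters of tested genes, 7.15% of all 19391 promoters and 0 of 40 promoters of lowered genes. The remaining holders were Adora1, Ccl9, Ctla2b, Fgl2 and Hmcn2. The half-site was in 16.1% of raised promoters against 12.3% of those tested, and the E-box in 7.14% against 10.1%. The PU.1 letters were in 5.36% against 3.34%, the NF-kB letters in 3.57% against 1.68% and the interferon letters in 3.57% against 3.26%. These matches describe the letters in a window, and binding was not measured. Transcripts of the AP-1 subunits Fos and Jun were at -0.03 ± 0.27 and 0.26 ± 0.11 (SE), neither called, and of 24 immediate early genes tested 0 were called. The adjusted p alone was passed by 3 of the 24, all lower in Cre-positive libraries, and 1 was called lowered without Het-F-0206.

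The genotypes pooled as Cre-positive differed by 1 called gene (0.00604%), Bin1 itself, which was lower in Homo than in Het by 1.47 on the log2 scale (-1.47, 95% interval -1.93 to -1.01; adjusted p = 0.0105 by limma). The unadjusted p was below 0.05 for 397 genes. For Cst7 the difference of Homo from Het was -0.06 (95% interval -0.37 to 0.25), for Pdcd1 -0.17 (-0.57 to 0.23), for Hcar2 -0.18 (-0.65 to 0.29) and for Lox 0.13 (-0.59 to 0.84). Gpr153 was at -0.37 (-0.80 to 0.06) and Ly9 at -0.31 (-0.62 to 0.00). The contrast is by label, and its Het arm includes Het-F-0206 and Het-M-0199 with Bin1 at or near the Homo level. Without these 2 libraries the difference was -1.84 for Bin1, 0.08 (-0.18 to 0.35) for Cst7, -0.01 (-0.37 to 0.34) for Pdcd1 and -0.38 (-0.85 to 0.09) for Gpr153. Against the shared WT libraries, Cst7 was raised by 2.33 in Het and 2.27 in Homo, Pdcd1 by 2.04 and 1.87, Chst1 by 1.32 and 1.18, and Sp100 by 1.02 and 0.84. Het against WT gave 85 called genes (0.513%), 64 raised (0.386%) and 21 lowered (0.127%), over 9 Het mice. Homo against WT gave 40 (0.241%), 32 raised (0.193%) and 8 lowered (0.0483%), over 7 Homo mice. Without Het-F-0206 the counts were 66 for Het and 50 for Homo. Without both Het-F-0206 and Het-M-0199 they were 55 and 49.

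No gene was called for a difference of the Cre effect between the sexes (0 by limma; unadjusted p below 0.05 for 495). The interval of this difference was -0.56 to 0.53 for Cst7 and -0.55 to 0.85 for Pdcd1. Chst2 was raised by 0.96 in males and 1.6 in females, a difference of -0.65 (95% interval -1.23 to -0.06) that did not pass adjustment (adjusted p = 1 by limma). In males alone 17 genes were called and in females alone 12.

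Het-F-0206, the library with almost no Cx3cr1, stood furthest from WT in the raised genes. It had the highest FPKM of all 24 libraries for Cst7 (85.3, next 61.2), Pdcd1 (27.5, next 15.7), Hcar2 (27.8, next 18.4), Lox (6.10, next 3.14), Chst1 (68.9, next 48.5), Ly9 (50.0, next 37.3) and Xirp1 (3.54, next 1.18). Of these, Xirp1 lies inside the annotated span of Cx3cr1. To keep it out of the choice of genes, each Cre-positive library was set against the genes called raised without that library. Het-F-0206 was the highest of 24 in 39 of 75 such genes (52%), against 3.58% of all genes tested. The other 15 Cre-positive libraries were the highest in 0 to 12.3% of theirs.

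The size of the change differed likewise. The log2 difference of Het-F-0206 from WT females was a median of 1.68 times the log2 fold change fitted without it, whereas the ratio was between 0.671 and 1.18 in the other 15. All 75 genes were higher in Het-F-0206 than in the mean of WT females, but these WT libraries also entered the calls. The count does not set Het-F-0206 apart. Against WT of the same sex it was 75 of 75 in Homo-F-0228, 61 of 61 in Homo-M-0190 and 85 of 94 in Het-F-0257. In the 53 genes called lowered without Het-F-0206, Bin1 and Cx3cr1 left out, its ratio was 0.863, inside the range of 0.521 to 1.24 of the others. Het-F-0206 was the lowest of 24 in 6 of these 53 genes (11.3%), against 2.71% of all genes tested and 0 to 10.7% of theirs in the other 15. Homeostatic genes were not raised in that library: 10 of 20 lay within the range of the other 9 Cre-positive females, and the rest, such as Fcrls at 1384 FPKM against 1609 to 2059, lay below it.

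Het-M-0199, with Bin1 at 51.8 and Cx3cr1 at 1112 FPKM, had a ratio of 0.932, and the 7 Homo libraries, with Bin1 at 39.5 to 45.2 FPKM, had ratios of 0.849 to 1.08. Het-F-0206 is 1 mouse, and the part of its Cx3cr1 level in these values was not tested.

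**Figure D4:**
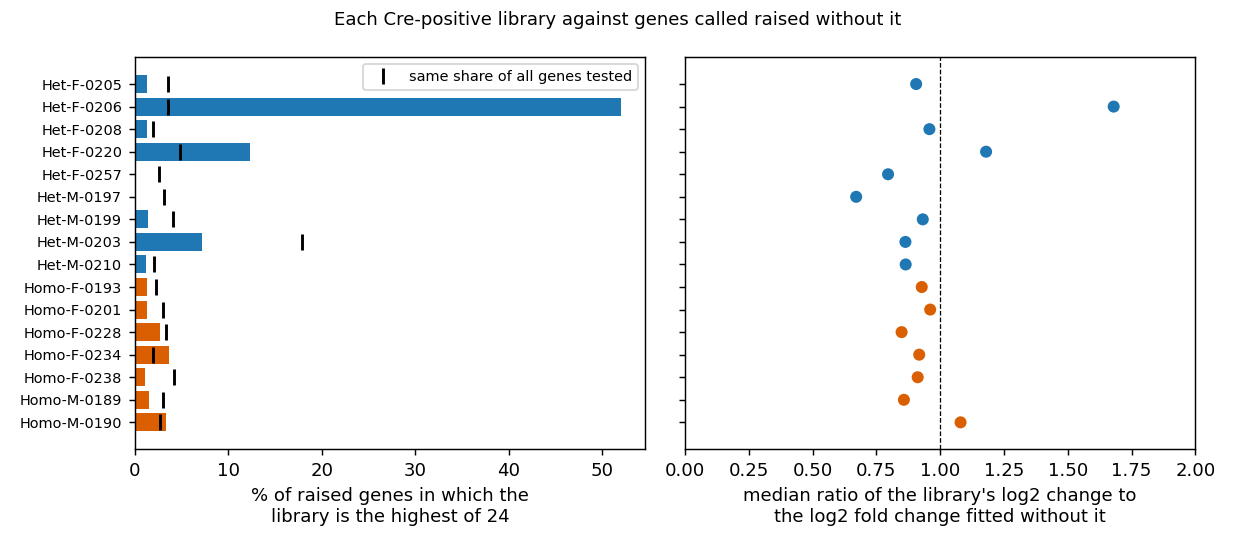
For each of the 16 Cre-positive libraries (blue Het, orange Homo), the share of genes called raised without that library in which it was the highest of 24 libraries (left, bars, with ticks for the same share of all genes tested), and the median ratio of its log2 change to the log2 fold change fitted without it (right; the dashed line is a ratio of 1). Het-F-0206 is at 52% and 1.68, and the others at 12.3% and 1.18 or below.

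Among lowered genes, Bin1, Ednrb and Fzd8 did not overlap between groups within either sex. Ednrb, an endothelin receptor gene, was 0.691 to 1.15 FPKM in WT (median 0.942) and 0.122 to 0.814 in Cre-positive libraries (median 0.478), with a log2 fold change of -0.94 ± 0.21 (SE; adjusted p = 0.0216 by limma). Fzd8, a Wnt receptor gene, was 1.3 to 2.7 FPKM (median 2.13) and 0.567 to 1.8 (median 1.15), with -0.89 ± 0.17 (SE; adjusted p = 0.00738). With depth as a covariate neither passed, at adjusted p of 0.0628 and 0.0528 by limma.

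Of 8 genes listed as lowered by the study, 3 were called, and like the raised ones they had been picked on these mice. Chmp4b and 5 chaperone genes are named in its text, and Sema6d and Adgre4 come from its gene list for female Het mice. Sema6d, a transmembrane semaphorin gene, was 2.29 to 6.18 FPKM in WT (median 4.21) and 1.52 to 3.79 in Cre-positive libraries (median 2.48), and its log2 fold change was -0.80 ± 0.16 (SE; adjusted p = 0.00898 by limma). Adgre4, an adhesion receptor gene of myeloid cells, fell by 0.72 and the chaperone gene Hsp90ab1 by 0.62. With depth as a covariate neither of these 2 passed, at adjusted p of 0.0757 and 0.0787 by limma, while Sema6d did (0.0407). Without that covariate, Hspa8 and Dnajb1 passed the adjusted p at -0.49 and -0.53, below the fold threshold. Dnaja1 (-0.59 ± 0.17, SE), Hsp90aa1 (-0.26 ± 0.13) and Chmp4b (-0.16 ± 0.14) passed neither. This contrast pools sexes and genotypes. In males alone and females alone the log2 fold changes were -0.84 and -0.29 for Dnaja1, -0.83 and -0.38 for Hsp90ab1, -0.62 and -0.33 for Hspa8 and -0.45 and -0.04 for Hsp90aa1, and the difference between the sexes was called for none of them.

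Cytosolic chaperones leaned the same way, with 25 of 27 tested below 0 and 1 called. Their median was -0.17, against 0.00 over all genes tested. The list was chosen with earlier results of these data known, so this lean is not independent evidence beside the study's chaperone genes. The groups overlapped: Hsp90ab1 was 154 to 297 FPKM in WT (median 243) and 107 to 257.6 in Cre-positive libraries (median 150), where Het-F-0257 was the highest. With depth as a covariate none of the 27 was called and the median was -0.15.

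The most strongly lowered genes are best known from other cells. Of 10 neutrophil genes tested 4 were lowered and 0 raised, with a median of -2.67: the granule protein genes Ngp (-3.89 ± 0.93), Camp (-3.73 ± 0.88), Lcn2 (-2.69 ± 0.69) and Ltf (-2.65 ± 0.64; SE). Ngp was 1.4 to 33.3 FPKM in WT and 0 to 13.2 in Cre-positive libraries, 5 of which were at 0. The summed level of Ngp, Lcn2, Camp, Ltf, S100a8 and S100a9 was 6.51 to 347 FPKM (median 64.3) in WT and 0 to 87.7 (median 11.3) in Cre-positive libraries. This sum includes the 4 called genes, so its gap partly follows from their choice. Over all 13 neutrophil genes of the list the groups overlapped broadly. That sum was 212.8 to 528.2 FPKM (median 272.9) in WT and 197.3 to 287.4 (median 222.2) in Cre-positive libraries.

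Of 9 choroid plexus genes tested 6 were lowered, with a median of -2.36. Enpp2, which encodes autotaxin, was 0.131 to 168 FPKM in WT (median 35.2) and 0.113 to 3 in Cre-positive libraries (median 0.66). The others were Folr1, Kl, Igfbp2, Kcnj13 and Clic6, and Ttr, the defining transcript of this epithelium, was at -3.86 ± 1.06 (SE; adjusted p = 0.0674 by limma). The summed level of the 9 genes was 35.7 to 456 FPKM in 6 WT libraries, 0.916 in WT-F-0207, 0.416 in WT-M-0258 and 0.157 to 10 in the Cre-positive libraries. The difference was thus present in 6 of 8 WT mice. A further list of 22 genes was gathered after the lowered genes had been seen, so all of them are called by construction and they add no evidence. With depth as a covariate 3 of these 22 were called.

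Of 14 border macrophage and monocyte genes 3 were lowered, with a median of -0.96: Chil3 (-3.45 ± 0.68), F13a1 (-1.26 ± 0.26) and Cbr2 (-0.90 ± 0.23; SE). Mrc1, Cd163 and Lyve1 were at -0.56, -1.03 and -1.23 and did not pass. The summed level of the 14 genes, most of it Stab1, was 127.9 to 189.4 FPKM in WT and 117.4 to 211.6 in Cre-positive libraries. With depth as a covariate 0 of the neutrophil, 0 of the choroid plexus and 1 of the border macrophage genes were called. Markers of neurons, astrocytes, oligodendrocytes, endothelium and lymphocytes gave 0 calls in either direction. The medians were 0.33 for 8 neuronal genes and 0.35 for 8 astrocyte genes, all of them above 0, and 0.52 for 7 oligodendrocyte genes, 6 of them above 0. They were -0.05 for 5 endothelial and -0.21 for 3 lymphocyte genes. The part of these other cells in the lowered calls was not tested.

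**Figure D5:**
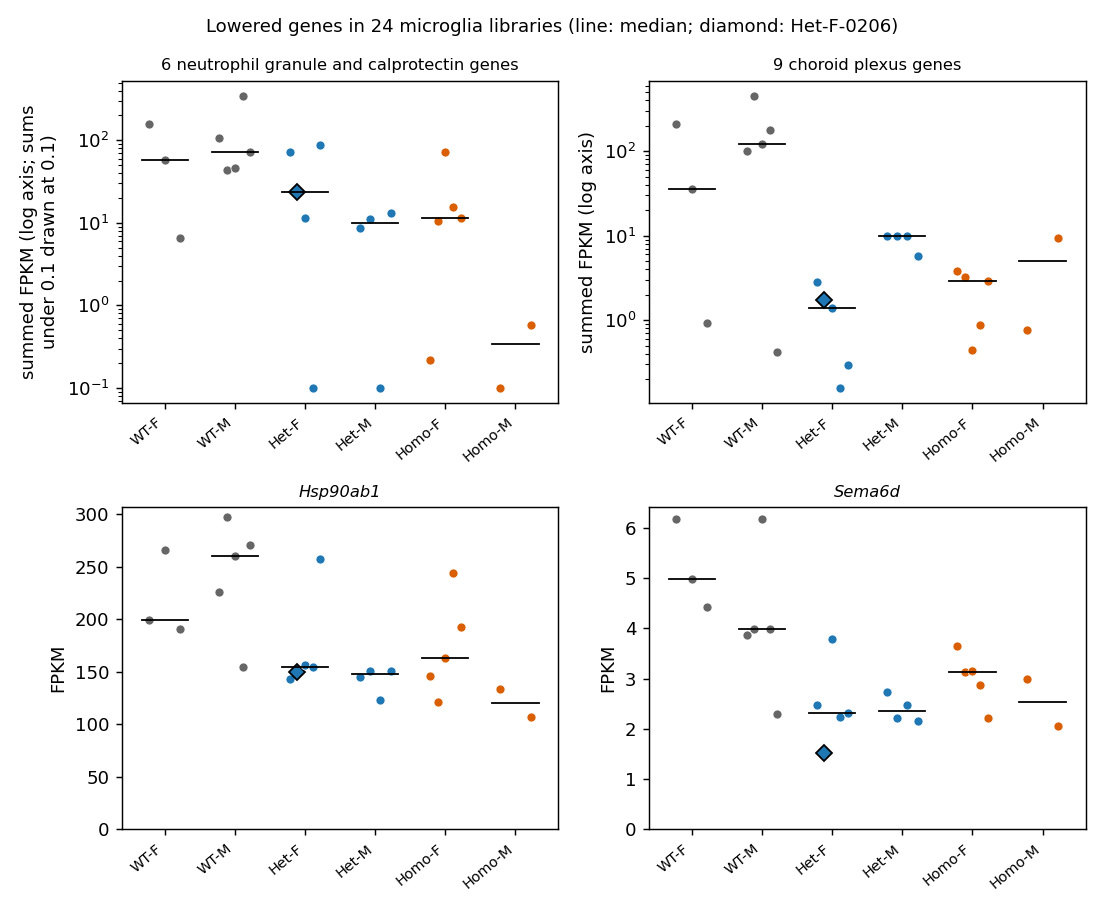
Summed FPKM of 6 neutrophil granule and calprotectin genes and of 9 choroid plexus genes (top, log axes, sums below 0.1 drawn at 0.1), and FPKM of Hsp90ab1 and Sema6d (bottom, linear axes from 0), in each of 24 libraries; lines are group medians and the diamond is Het-F-0206. Choroid plexus genes reach 456 FPKM in WT and 10 in Cre-positive libraries, and 2 WT libraries lie among the Cre-positive ones.

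Other lists gave few or no calls. Of 24 N-BAR and endocytosis genes, 15 complement genes, 17 Toll-like receptor genes, 14 TGF-beta signalling genes and 18 cell cycle genes tested, none was called, and the medians lay between -0.02 and 0.07. Of 22 ESCRT and vesicle release genes none was called, with a median of -0.01. Of 24 Alzheimer's disease risk genes the 1 called was Ace (-1.82 ± 0.48, SE), which was at 0 FPKM in 11 Cre-positive and 2 WT libraries and was not called without Het-F-0206.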

How the data were processed

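RNA of sorted microglia was sequenced, and the authors used OSA4 for alignment (mm10) and RSEM for abundance. They deposited FPKM for 47643 genes, relative to the mapped fragments of a library. No counts were analysed here, and the DESeq2 model of the study was not repeated. The table also holds 6 columns of no listed sample, which were not used. Groups and mouse numbers come from the sample titles, which name separate mice.

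FPKM of the 24 libraries were scaled by median ratios (11469 genes at a mean of 1 or more), 0.1 was added, and log2 values of 16565 genes with a mean of at least 0.1 were compared with limma 3.58.1 (R 4.3.3), with an intensity trend and sex as a term. The interaction with sex and the 3 genotypes were fitted to the same libraries. Calls needed an adjusted p under 0.05 and a change over 1.5-fold. An exact permutation within sexes (Python 3.11.15, numpy 2.4.6) was run on named genes and is not reported, because the naming rule asked for no overlap within the sexes. Fits and depth estimates were checked on simulated data. Gene positions and biotypes are from GENCODE M21 on GRCm38, promoters from RefSeq.

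Named are the 17 genes of the study, 4 checks of the labels, and up to 15 raised and 15 lowered genes with the largest change called with and without Het-F-0206 and without overlap in either sex; members of lists are named where called or defining, and others where said. Members and lists were chosen with earlier results of these data known, and 3 lists were added after the values were seen. Alternatives were other pseudocounts, filters, scalings and weights, covariates for depth and for lncRNA level, each sex alone, other sets of libraries, and each library left out in turn.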

Additional observations from a re-analysis of the deposited data

Results flagged for a closer look

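Within each group of 4 or 5 libraries, the highest or lowest FPKM of a named gene was compared with the others by Dixon's criterion. It marked 11 of 112 pairs of gene and group, where chance marks about 1 in 20. Of these, 5 were in the library labelled Het-F-0206. Its Bin1 was 42.7 FPKM, against 152 to 164 in the other female Het libraries, and its Cx3cr1 was 13.9 against 1048 to 1243. Its Cst7 was 85.3 against 35.6 to 47.3, its Pdcd1 was 27.5 against 9.61 to 11.8, and its Xirp1 was 3.54 against 0.503 to 1.1.

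Chaperone genes stood apart in Het-F-0257. Hsp90ab1 was 257.6 FPKM there against 143 to 156 in the other female Het libraries, Dnaja1 was 94.9 against 39.9 to 50.9, and Dnajb1 was 52.1 against 23.4 to 31.4. Rxrg was 1.55 in WT-M-0177 against 0.811 to 0.89 in the other male WT libraries. In female Homo libraries, Gpr153 was 1.21 in Homo-F-0193 against 0.713 to 0.83, and Chmp4b was 5.26 in Homo-F-0228 against 3.83 to 4.16. No difference of the Cre effect between the sexes was called.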

How the results depend on the processing

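Called genes (138; 82 raised, 56 lowered) were 75 (44, 31) with a pseudocount of 1, 110 (81, 29) with 0.01, 86 (62, 24) at a mean FPKM of at least 1, 247 (151, 96) without the fold threshold, 65 (54, 11) with depth and 102 (68, 34) with the lncRNA level as covariate. They were 95 (65, 30) without Het-F-0206 and Het-M-0199, 72 raised and 37 lowered with the 6 groups weighted equally, 17 (9, 8) in males alone, 12 (12, 0) in females alone and 20 (19, 1) in females without Het-F-0206, the last chosen after seeing the data. Leaving out each library in turn gave 67 to 173 calls, 55 to 94 raised and 12 to 89 lowered; the lowest counts came without WT-F-0192, and 173 and 89 without WT-F-0207. The cause of these shifts was not tested, and each sex alone has fewer libraries. The interaction with sex gave 0 calls, 2 without a filter on low values, and 0 to 1 with a library left out.

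Homo against Het gave 1 call, 2 without a filter or without the intensity trend, 0 with groups weighted equally or in females alone, 3 in females without Het-F-0206, and 0 to 1 with a library left out. Het against WT gave 85 calls, 50 without a filter, 55 without Het-F-0206 and Het-M-0199, 3 in males, 9 in females, 15 in females without Het-F-0206, and 57 to 117 with a library left out. Homo against WT gave 40 calls, 105 with array weights, 74 with all 30 libraries and the number range as a term, 8 in males, 10 in females, 14 in females without Het-F-0206, and 18 to 72 with a library left out. Signs turned only for genes not called: Xist (-0.01 in males alone) and, in females, Chmp4b and Hsp90aa1. Chmp4b was at 0.03 in females alone and at 0.04 in females without Het-F-0206, where Hsp90aa1 was at 0.01. No paired analysis was possible because mouse numbers are unique. The FPKM give no counting error, and genes below 1 FPKM, 33 of the 56 lowered, are the least certain.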

Other observations

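Called genes lay on most chromosomes, and chromosome 1 had the highest share. It held 17 raised and 5 lowered of 1129 genes tested (1.95%), against 0.833% of all genes tested. Of 19 p53 target genes tested, a list drawn up after the values were seen, 2 were raised: Cdkn1a, the cell cycle inhibitor p21, from 4.79 to 8.56 FPKM in WT to 6.35 to 18.5 in Cre-positive libraries (0.70 ± 0.15, SE), and Phlda3, an inhibitor of Akt signalling (1.47 ± 0.33, SE). Mdm2 and Bax, other targets, were at -0.03 ± 0.06 and 0.04 ± 0.07 (SE), and the median of the list was 0.04. Het-F-0206 had the highest level of both raised genes, 18.5 FPKM for Cdkn1a and 3 for Phlda3.

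Scavenger and macrophage genes chosen after their values were seen were lowered too: Mgl2 (-2.09 ± 0.42), Pltp (-1.21 ± 0.24), Cd36 (-1.06 ± 0.24), Timd4 (-1.20 ± 0.29) and Dab2 (-0.64 ± 0.16; SE). Among Zfp36 family genes, which encode proteins that destabilise AU-rich mRNA, Zfp36l1 (-0.47 ± 0.12, SE) and Zfp36l2 (-0.34 ± 0.08, SE) passed the adjusted p (0.0437 and 0.0266 by limma), below the fold threshold.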
